A study of Rattus norvegicus with 18 samples.

Results

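The genes described here encode the core of the basement membrane: the collagen IV chains Col4a1 and Col4a2, the related collagens Col15a1 and Col18a1, the laminin chains Lamb1, Lamb2 and Lamc1, the nidogens Nid1 and Nid2, and perlecan, Hspg2. They were chosen by gene name, with earlier results of these data known, and 9 of the 10 named genes have a row among the 18923 genes of the expression table. No row carries the name Hspg2. A row under an older name of that gene is described separately and is not counted with the others. The samples were nucleus pulposus, the soft centre of the intervertebral disc, from rats aged 2, 10 and 20 months, with 3 libraries at each age. The labels give no strain, sex or treatment and do not say whether animals were pooled or whether the 3 libraries of an age came from separate animals. All p-values hence refer to the spread among libraries, and this may be technical. Replicates differed less from each other at 2 and 10 months than at 20. The median chi-square of their estimated fragments, which sets a difference against counting, was 0.552 to 0.674 in the former and 1.31 to 1.49 in the latter. The main tests of genes joined all ages in a shared spread. The libraries are the input libraries of an experiment on RNA methylation, made from poly(A) RNA without immunoprecipitation, and they measure RNA abundance. The immunoprecipitated libraries are not analysed here.

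A basement membrane is a thin sheet of matrix laid down against cells. Laminin heterotrimers, each of an alpha, a beta and a gamma chain, assemble on integrins and dystroglycan at the cell surface, and a collagen IV network forms beside them. Nidogens bind the laminin gamma 1 chain to collagen IV, and the heparan sulfate proteoglycan perlecan links the networks and holds growth factors. Collagens XV and XVIII sit at the outer face of many basement membranes and release the fragments restin and endostatin. Notochordal cells, from which the nucleus pulposus develops, are enclosed by a laminin-rich sheath, and nucleus pulposus cells attach to laminins in culture.

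Values are FPKM, which divide a gene's fragments by its length in kilobases and by the library's mapped fragments, as the authors deposited them. Aligned bases per library came to 4.77 to 5.04 gigabases in the 2-month group, 4.35 to 4.74 in the 10-month group and 3.53 to 4.90 in the 20-month group. The 20-month libraries stood apart as a group, with an inferred read length of 141 bases and not 132. They had 80.1 to 80.9% of bases on listed transcripts, against 85.6 to 86.1% in the others. No label names a batch, and this difference cannot be told apart from age in any comparison with 20 months. Replicate 3 of the 20-month libraries also stood apart from the other two, with skeletal muscle markers summing to 204.0 FPKM, against 3.91 and 4.02 FPKM. Keratin and other nucleus pulposus and notochordal markers summed to 30034 to 31407 FPKM at 2 months, 25233 to 25558 at 10 and 25865 to 27083 at 20. The largest part was Ca3, at 9992, 9507 and 10028 FPKM on average. Krt8 averaged 4322, 3246 and 4444 FPKM and Krt19 5268, 3728 and 3336 FPKM, so keratins of the labelled tissue were expressed at every age. Shh, Foxf1 and Pax1, of the same list, stayed below 1 FPKM in every library. In tissue libraries, fewer cells of a type and less RNA per cell cannot be told apart.

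By level, Lamb2 and Nid2 led and the collagen IV chains were close to 0. Lamb2 lay above 97.2%, 97.0% and 97.3% of all listed genes at 2, 10 and 20 months, and Nid2 above 95.1%, 92.7% and 90.6%. Lamc1 came next at every age. Nid1, Col15a1 and Lamb1 followed at 2 months, when the libraries of Col15a1 overlapped with those of both others and Nid1 lay above Lamb1 without overlap. At 10 months the libraries of Nid1 and Lamb1 overlapped, and those of Col15a1 overlapped with those of Col18a1. At 20 months Lamb1 lay above Nid1 without overlap, and Col18a1 and Col15a1 overlapped below them. The 9 rows summed to 253.8 to 259.1 FPKM in 2-month libraries, 204.1 to 207.3 in 10-month libraries and 182.1 to 199.2 in 20-month libraries, the sum being largely that of Lamb2 and Nid2.

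Between 10 and 2 months, 5 of the 7 genes that could be tested fell and 0 rose. Col15a1 fell most, followed by the nidogens, and the beta laminins fell less. Over all 11708 tested genes, 11.4% were called lower and 19.0% higher in this comparison (limma on log2(FPKM + 1), Benjamini-Hochberg adjusted p under 0.05 over all tested genes). The 7 had at least 1 FPKM in all 9 libraries, so none was admitted to the test by its level at a single age. Their median log2 change was −0.37, against 0.04 over all tested genes, and all 7 had 10-month libraries entirely below the 2-month ones, as 21.5% of all tested genes had. With only these ages fitted, 7 of 7 fell, and 16.2% of all tested genes were called lower in that fit. Markers of the tissue moved in the same direction: of 11 tested nucleus pulposus and notochordal markers 8 fell and 0 rose at 10 against 2 months, with a median log2 change of −0.41. At 20 against 2 months 7 of them fell and 1 rose, and at 20 against 10 months 4 fell and 3 rose (6 and 4, and 2 and 7, after median-of-ratios scaling, which sets the typical gene's change to 0). Of all tested genes, 49.6% fell and 18.6% rose at 20 against 2 months, and 53.3% and 11.4% at 20 against 10. With that scaling the shares were 31.2% and 31.1%, and 25.7% and 26.8%. The part of the marker changes in those of the 7 genes was not tested.

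Between 20 and 2 months, 5 of the 7 fell and 0 rose, namely both nidogens, Col15a1, Lamb1 and Lamc1. The background was far higher here, with 49.6% of all tested genes called lower and 18.6% higher, and the share of members called lower lay nearer to it. The median log2 change was −0.58 for the 7 and −0.20 for all tested genes. Rescaling each library by its median ratio to the others, which brings the median gene to 0.00, left 4 lower and made Lamb2 higher, against a background of 31.2% lower and 31.1% higher. The 20-month libraries lay wholly below the 2-month ones for 5 of the 7 and wholly above for 0, as they did for 51.0% and 19.4% of all tested genes.

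Between 20 and 10 months, 4 of the 7 fell, the nidogens, Lamb1 and Lamc1, and 0 rose. In all, 53.3% of tested genes were called lower and 11.4% higher, so that 4 of 7 is near the background. The median log2 change was −0.19 for the 7 and −0.23 for all tested genes. After median-of-ratios scaling only Nid1 and Nid2 stayed lower, while Col18a1 and Lamb2 were higher (25.7% lower and 26.8% higher over all genes). The 20-month libraries lay wholly below the 10-month ones for 4 of the 7 and wholly above for 0, against 55.3% and 12.6% of all tested genes. The 20-month libraries are shared between both comparisons with that age. Over the 3 ages together, the F test called 6 of the 7, against 75.4% of all tested genes, and the exception was Col18a1.

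**Figure D1:**
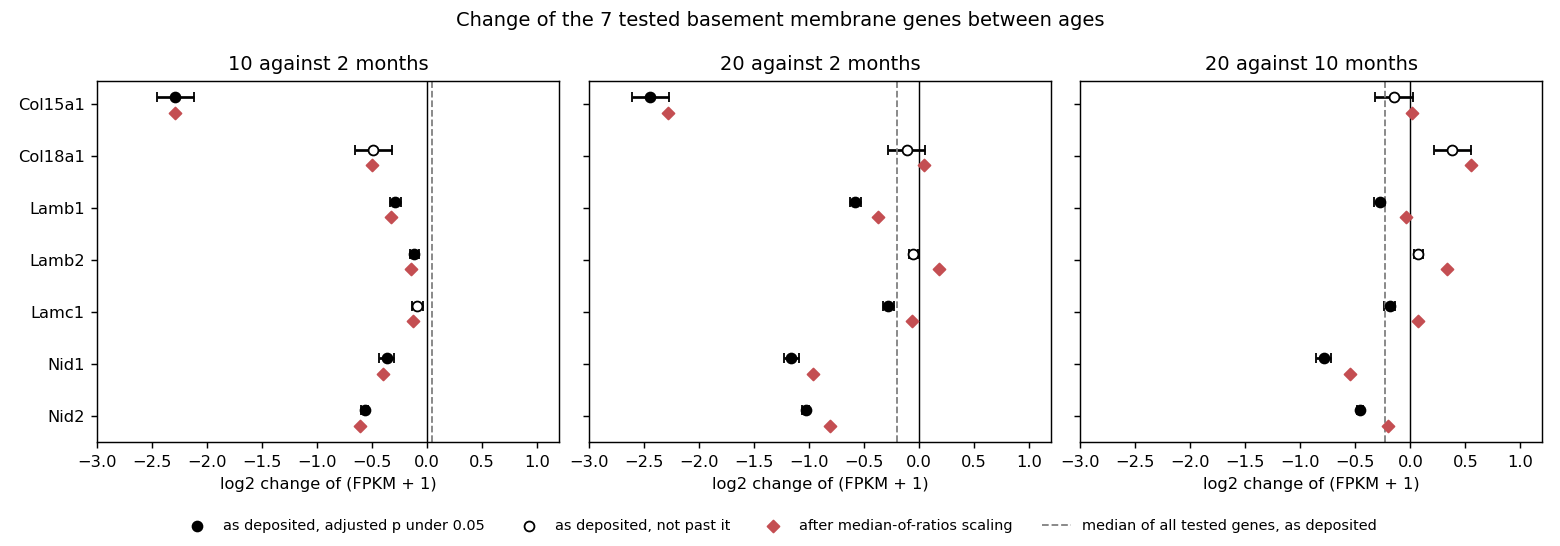
Log2 change of (FPKM + 1) for the 7 tested genes in the comparisons 10 against 2, 20 against 2 and 20 against 10 months, with limma standard errors as bars on the circles, filled where the adjusted p was under 0.05. Diamonds give the change after median-of-ratios scaling and the dashed line the median of all tested genes as deposited. The circles of Nid1, Nid2 and Lamb1 lie below both the line and 0 in all 3 panels, whereas Lamb2 at 20 against 2 months is at −0.05 as deposited and 0.18 after scaling.

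Col4a1 (chr16:83522162-83632153, plus strand) and Col4a2 (chr16:83387364-83438561, minus strand) encode the chains of the most widespread collagen IV molecule. Here and below, coordinates of the rows are those of the authors' table, and no source used here gives its genome build. Col4a1 had 0.0303, 0.0606 and 0.0470 FPKM at 2 months, 0, 0.0269 and 0.0449 FPKM at 10 months, and 0, 0.225 and 0.230 FPKM at 20 months. Col4a2 had 0.0766, 0.0443 and 0.0718 FPKM at 2 months, 0, 0.0367 and 0.0464 FPKM at 10 months, and 0.0766, 0.114 and 0.285 FPKM at 20 months. These levels rest on an estimated 0 to 26 fragments per library for Col4a1 and 0 to 25 for Col4a2. The highest values of each gene came from 20-month libraries, but Col4a1 was also listed at 0 in the first of them. Neither gene reached the 1 FPKM needed to enter the test, and the ratio between them could not be computed where a chain is listed at 0.

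The 2 genes are transcribed away from each other from a shared promoter. In RefSeq (rat build GRCr8) their starts are 76 bases apart on chromosome 16, and the 300-base windows around them share 176 bases. The authors' rows place the starts much farther apart, at 83438561 for Col4a2 and 83522162 for Col4a1. Whether those rows lack bases near the starts, and what this does to their FPKM, was not tested. The RefSeq window of Col4a1, chr16:84885347-84885646 on the plus strand, is shown because it holds both RefSeq starts. Capitals mark the bases between the starts, Col4a2 being read leftward from their left end and Col4a1 rightward from their right end.

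Col4a1 and Col4a2: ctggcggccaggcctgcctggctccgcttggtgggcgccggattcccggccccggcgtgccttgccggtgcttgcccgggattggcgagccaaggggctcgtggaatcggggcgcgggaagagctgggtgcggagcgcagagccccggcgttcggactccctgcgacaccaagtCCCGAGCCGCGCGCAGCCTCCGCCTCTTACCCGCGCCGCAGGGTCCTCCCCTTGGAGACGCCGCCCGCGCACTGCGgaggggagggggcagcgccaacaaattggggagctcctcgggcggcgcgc

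This window is 75% G or C, a higher share than in 96.8% of the 33469 rat promoter windows in the table, whose median is 51.7%. It holds 38 CpG dinucleotides, against a median of 7. The letters GGGCGG, a GC box, matched at 2 places on either strand, as they do at least once in 33.1% of all windows, and CCAAT matched at 2 (37.5% of windows have it). TATAAA, which 14.2% of windows hold, did not match. The matches do not overlap, and a match describes the letters only.

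The other collagen IV and laminin chains, a list of 11 of which 9 have a row and 3 were tested, showed no collagen IV chain at a high level either. Col4a4, a chain of the collagen IV of kidney and lung, averaged 0.815 ± 0.0452, 1.47 ± 0.0531 and 1.14 ± 0.155 FPKM at 2, 10 and 20 months (SD, n = 3 each). It rose at 10 against 2 months (log2 0.44, limma adjusted p = 0.00396). At 20 against 2 months the call (0.24, adjusted p = 0.0288) was lost without 2-month replicate 2 or 3 or 20-month replicate 2 or 3 (adjusted p = 0.0812, 0.0681, 0.0602 and 0.0815). Col4a3 and Col4a5 stayed below 1 FPKM, at 0.142 and 0.288 FPKM at 2 months.

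Col15a1 (chr5:62840360-62950240, plus strand), the chain of collagen XV, which tethers basement membranes to the fibrils beneath them, had 13.3, 11.1 and 13.7 FPKM at 2 months. It had 1.89, 2.11 and 1.43 FPKM at 10 months, and 1.12, 1.24 and 2.36 FPKM at 20 months. The 10- and 20-month libraries overlapped with each other and lay far below every 2-month library. They rested on an estimated 127 to 197 fragments at 10 months and 73 to 213 at 20, against 1046 to 1319 at 2 months. The mean at 10 months was 0.143 times that at 2 months, and at 20 months 0.124 times. Expressed as log2(FPKM + 1), where the 1 that is added shrinks changes of weakly expressed genes, the differences were −2.29 ± 0.17 (SE, adjusted p = 4.35e-05) and −2.44 ± 0.17 (adjusted p = 3.22e-06). Between 20 and 10 months it was −0.15 ± 0.17 (adjusted p = 0.462). Without 20-month replicate 3, the library with muscle markers and the highest 20-month value of Col15a1, this last difference was −0.36 with an adjusted p of 0.0314, and after median-of-ratios scaling it was 0.01.

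A row named LOC108348074 (chr5:64476317-64542645, plus strand), which the authors' table describes as collagen alpha-1(XV) chain-like, had the pattern nearest to that of Col15a1 among all tested genes. It had 9.0, 11.7 and 10.5 FPKM at 2 months, 1.12, 1.02 and 1.69 FPKM at 10 months and 1.42, 0.861 and 2.44 FPKM at 20 months. Reads that fit both rows may have been divided between them, so the level of each is uncertain. Summed within libraries, the pair had 23.1 ± 0.960, 3.09 ± 0.0661 and 3.14 ± 1.45 FPKM at 2, 10 and 20 months (SD, n = 3 each), so that the sum was also lower at both later ages.

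Some markers of other cells also dropped between 2 and 10 months. Col1a1, a type I collagen chain of fibrous tissue, averaged 9.47 ± 0.141, 0.966 ± 0.0654 and 2.39 ± 2.34 FPKM at 2, 10 and 20 months, the 20-month libraries being at 0.895, 1.18 and 5.09 FPKM. Hba-a1, a hemoglobin chain of red blood cells, averaged 51.5 ± 3.49, 5.88 ± 0.742 and 19.8 ± 1.08 FPKM. Unlike Col15a1, it rose at 20 against 10 months (log2 1.60, limma adjusted p = 1.51e-06). The lists these genes belong to did not all move in this way. The 6 listed red blood cell markers summed to 82.9 to 93.2 FPKM at 2 months, 9.57 to 10.6 at 10 and 36.6 to 42.5 at 20. The 9 fibroblast and outer annulus markers summed to 110.3 to 116.6, 116.5 to 117.9 and 124.6 to 180.2 FPKM, mostly from Mfap5, a microfibril protein (93.9 ± 4.30, 101.3 ± 0.910 and 98.6 ± 8.67 FPKM). Of the 6 of them that were tested, 1 rose and 2 fell at 10 against 2 months, beside 19.0% and 11.4% of all tested genes. The one that rose was Dcn, the small proteoglycan decorin, which averaged 2.02 ± 0.422, 9.83 ± 0.344 and 33.3 ± 28.8 FPKM and so went the opposite way to Col1a1. Its changes were 1.85 at 10 against 2 months (adjusted p = 0.0148, but 0.0508 without 2-month replicate 2 and 0.0672 with 5 added in place of 1) and 3.19 at 20 against 2 (adjusted p = 2.20e-04). A set of 4 Schwann cell markers summed to 758.9 to 784.9, 594.5 to 613.0 and 641.6 to 654.5 FPKM, nearly all of it S100b, which nucleus pulposus cells also express. Endothelial cells are a known source of collagen XV. Of 11 endothelial markers in the table, 10 stayed below 1 FPKM in every library. Vwf, the highest of these 10, averaged 0.276 ± 0.0261, 0.557 ± 0.0420 and 0.704 ± 0.0957 FPKM at 2, 10 and 20 months. Its ages did not overlap and were higher in turn, opposite to Col15a1. The list did not move together. Egfl7 and Ptprb were also higher in turn on average, with overlap, whereas Plvap, Emcn, Cdh5 and Tek were highest at 2 months, as Col15a1 was. Those last averaged 0.0249 to 0.0832 FPKM at 2 months, on an estimated 0 to 4 fragments per library. Cdh5 and Kdr were at no more than 0.0249 FPKM on average at any age. The sum of the 11, at 27.5 to 28.0, 26.4 to 27.4 and 21.8 to 22.5 FPKM, was nearly all Flt1. This receptor for vascular endothelial growth factor averaged 27 ± 0.270, 25.9 ± 0.466 and 21.1 ± 0.601 FPKM. The part of any of these cells in the change of Col15a1 was not tested.

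**Figure D2:**
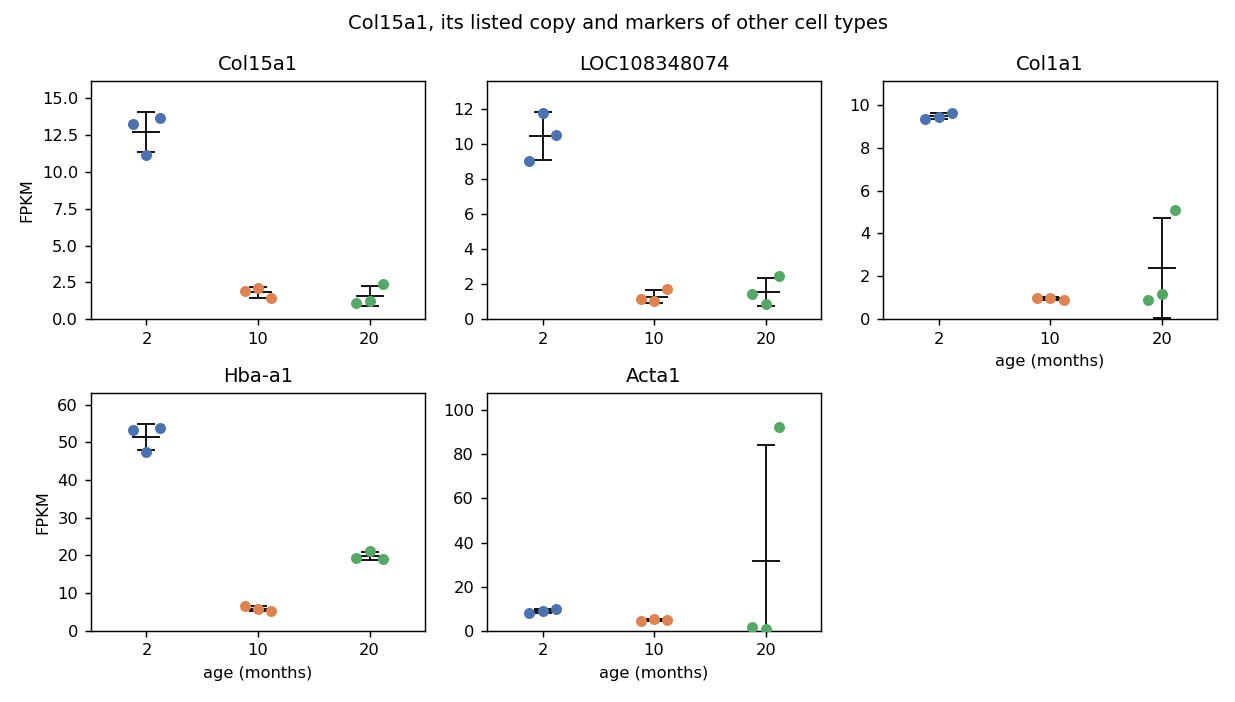
FPKM (vertical axes, from 0, a scale of its own per gene) by age in months of Col15a1, the row LOC108348074, and markers of fibrous tissue (Col1a1), red blood cells (Hba-a1) and skeletal muscle (Acta1), with each point 1 library and bars for the mean and SD of 3. Col1a1 and Hba-a1 are also highest at 2 months, and Acta1 stands at 92.5 FPKM in a single 20-month library.

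Col18a1 (chr20:12225202-12332858, plus strand), the chain of collagen XVIII and source of endostatin, was low and uneven. It had 2.41, 2.45 and 2.48 FPKM at 2 months, 1.41, 1.61 and 1.37 FPKM at 10 months, and 1.38, 3.19 and 2.27 FPKM at 20 months. The 20-month libraries reached from the 10-month values to above the 2-month ones and rested on an estimated 86 to 248 fragments. None of its changes passed as deposited, with −0.49 ± 0.17 at 10 against 2 months (adjusted p = 0.0604), −0.11 ± 0.17 at 20 against 2 (adjusted p = 0.590) and 0.38 ± 0.17 at 20 against 10 (adjusted p = 0.0808). The first of these depended on the spread shared with 20 months: fitted on the 2- and 10-month libraries alone, its adjusted p was 0.00153, and without 20-month replicate 1 or 2 it was 0.00711 and 0.0154. Leaving out 20-month replicate 1 gave a change of 0.59 at 20 against 10 months (adjusted p = 0.00200), and median-of-ratios scaling gave 0.55 (adjusted p = 0.0294).

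RefSeq's 300-base windows around the starts of Col15a1 (chr5:66297296-66297595, plus strand) and Col18a1 (chr20:11473395-11473694, plus strand), both on GRCr8, are shown because these relatives differed in their change with age. Capitals mark GC boxes on either strand, and these are the starts RefSeq lists, which may not be those used in this tissue.

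Col15a1: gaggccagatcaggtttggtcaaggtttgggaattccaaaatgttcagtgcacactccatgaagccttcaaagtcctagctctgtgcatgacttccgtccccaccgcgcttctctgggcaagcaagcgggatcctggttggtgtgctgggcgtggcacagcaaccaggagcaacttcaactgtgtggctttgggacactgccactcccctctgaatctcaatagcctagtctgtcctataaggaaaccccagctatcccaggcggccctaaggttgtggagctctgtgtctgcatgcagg

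Col18a1: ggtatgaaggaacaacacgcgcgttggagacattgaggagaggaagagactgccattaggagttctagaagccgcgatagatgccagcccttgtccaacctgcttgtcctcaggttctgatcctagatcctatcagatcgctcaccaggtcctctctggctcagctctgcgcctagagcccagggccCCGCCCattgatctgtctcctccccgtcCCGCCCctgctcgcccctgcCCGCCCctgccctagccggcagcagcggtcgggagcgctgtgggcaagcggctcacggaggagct

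The Col15a1 window is 55% G or C with 6 CpG dinucleotides, close to the medians over all windows, and none of the 3 motifs matched there. The Col18a1 window is 62.7% G or C with 18 CpG dinucleotides and 3 GC boxes, all upstream of the start.

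Lamb2 (chr8:117268337-117280517, plus strand), which encodes the laminin beta 2 chain, was by level the leading gene of the group. It had 119.1, 117.3 and 120.8 FPKM at 2 months, 110.2, 108.5 and 110.8 FPKM at 10 months, and 114.0, 110.0 and 121.1 FPKM at 20 months. Its libraries at 10 months lay below those at 2 months, and the 20-month libraries overlapped with both. At 10 against 2 months the change was −0.12 ± 0.04 (adjusted p = 0.0441), a call that was lost without any single 2- or 10-month library (adjusted p = 0.0806 to 0.128). At 20 against 2 months it was −0.05 ± 0.04 (adjusted p = 0.257), whereas median-of-ratios scaling gave 0.18 (adjusted p = 0.00325), so that its direction over the whole span depends on the scaling. Leaving out 20-month replicate 3 gave −0.09 (adjusted p = 0.0273). At 20 against 10 months it was 0.07 ± 0.04 (adjusted p = 0.151), where that scaling gave 0.33 (adjusted p = 1.40e-04) and the omission of 20-month replicate 2 gave 0.10 (adjusted p = 0.0399).

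Lamb1 (chr6:50528823-50596079, plus strand) encodes the beta 1 chain, the alternative partner in the same heterotrimers. Its libraries had 12.1, 12.5 and 12 FPKM at 2 months, 9.87, 9.53 and 9.88 FPKM at 10 months and 7.36, 7.77 and 8.40 FPKM at 20 months. The ages did not overlap and were lower in turn. The changes were −0.29 ± 0.05 at 10 against 2 months (adjusted p = 0.00314), −0.58 ± 0.05 at 20 against 2 (adjusted p = 1.19e-05) and −0.28 ± 0.05 at 20 against 10 (adjusted p = 0.00113). After median-of-ratios scaling the last was −0.04 (adjusted p = 0.531).

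Lamc1 (chr13:70658707-70783515, minus strand), the gamma 1 chain to which nidogen binds, had 27.9, 27.6 and 27.8 FPKM at 2 months, 26, 26.2 and 26 FPKM at 10 months, and 22.6, 21.3 and 24.5 FPKM at 20 months. It too was lower in turn without overlap, by small steps. The change at 10 against 2 months did not pass (−0.09 ± 0.05, adjusted p = 0.183), though it did with only these ages fitted (adjusted p = 0.0226). At 20 against 2 months it was −0.28 ± 0.05 (adjusted p = 6.85e-04) and at 20 against 10 months −0.19 ± 0.05 (adjusted p = 0.00704). Neither call was kept after median-of-ratios scaling, where the changes were −0.06 (adjusted p = 0.326) and 0.07 (adjusted p = 0.256).

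Among the alpha chains, which decide the type of laminin, Lama4 was the one well expressed. It averaged 40.9 ± 0.170, 34.1 ± 0.461 and 31.6 ± 3.63 FPKM at 2, 10 and 20 months (SD, n = 3 each), and fell at 10 against 2 months (−0.26, adjusted p = 0.0245, but 0.0586 to 0.0725 without any single library of those ages) and at 20 against 2 (−0.37, adjusted p = 0.00138, with median-of-ratios scaling giving −0.14 and adjusted p = 0.132). Lama5 averaged 3.47 ± 0.116, 5.33 ± 0.169 and 2.60 ± 0.388 FPKM, rising at 10 against 2 months (0.50, adjusted p = 0.00211) and falling at 20 against 10 (−0.82, adjusted p = 3.68e-05). Its change at 20 against 2 months, −0.32 (adjusted p = 0.00718), was −0.15 after that scaling (adjusted p = 0.147). In this list of other collagen IV and laminin chains, then, 2 of 3 tested genes rose and 1 fell at 10 against 2 months, 1 rose and 2 fell at 20 against 2, and 0 rose and 1 fell at 20 against 10. The shares over all tested genes were 19.0% and 11.4%, 18.6% and 49.6%, and 11.4% and 53.3%.

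Isoform use could be tested for Lamb2 alone, since the other members had a single listed transcript or 1 with over 90% of the FPKM on average. Lamb2 has a 33-exon model of 5627 bases and a 32-exon model of 5851 bases. The 33-exon model took 56.4, 97.9 and 50.8% of the isoform FPKM at 2 months, 47.3, 33.3 and 40.3% at 10 months, and 75.7, 69.2 and 71.7% at 20 months. The 10- and 20-month libraries did not overlap. At 2 months replicates 1 and 3 lay between them and replicate 2 above both. No difference among the ages passed (limma adjusted p of the F test 0.432, against 8.28% of 2765 tested isoforms called). Between 20 and 10 months the adjusted p was 0.405, with 6.98% of tested isoforms called. Without 2-month replicate 2 both models were called, which are mirror images of 1 ratio.

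**Figure D3:**
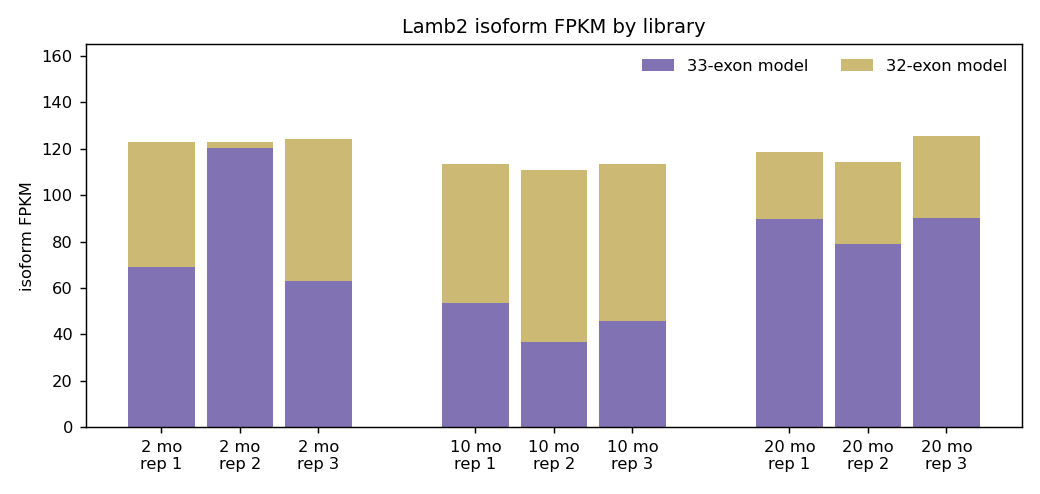
Isoform FPKM (vertical axis) of the 33-exon and 32-exon models of Lamb2, stacked, in each of the 9 libraries, grouped by age in months. The lower, 33-exon part takes 97.9% in 2-month replicate 2 and 33.3 to 75.7% elsewhere, while the height of the bars varies little.

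Nid2 (chr15:4894213-4951917, minus strand), nidogen 2, had 70.5, 69.5 and 69.1 FPKM at 2 months, 45.4, 46.5 and 47.9 FPKM at 10 months and 32.6, 33.6 and 34.4 FPKM at 20 months. The spread within an age was small beside the gaps between ages. The mean at 20 months was 0.481 times that at 2 months. The changes were −0.57 ± 0.03 at 10 against 2 months (adjusted p = 1.97e-05), −1.03 ± 0.03 at 20 against 2 (adjusted p = 5.74e-08) and −0.46 ± 0.03 at 20 against 10 (adjusted p = 7.42e-06). After median-of-ratios scaling they were −0.61, −0.81 and −0.20, all still called (the last at adjusted p = 0.00189).

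Nid1 (chr17:90553394-90627101, minus strand), nidogen 1, had 12.9, 13.2 and 13.2 FPKM at 2 months, 9.38, 10.5 and 9.83 FPKM at 10 months and 5.67, 4.65 and 5.66 FPKM at 20 months. Again no ages overlapped. Its change at 10 against 2 months was −0.37 ± 0.07 (adjusted p = 0.00491). At 20 against 2 months it was −1.16 ± 0.07 (adjusted p = 1.36e-06) and at 20 against 10 months −0.79 ± 0.07 (adjusted p = 2.22e-05). Median-of-ratios scaling gave −0.96 and −0.55. Nid1 and Nid2 were the members that fell in all 3 comparisons under both scalings.

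A row named LOC102554748 (chr7:380741-381732, plus strand), described in the authors' table as nidogen-2-like, may share reads with Nid2. It averaged 4.86 ± 0.440, 4.75 ± 0.518 and 1.18 ± 0.359 FPKM at 2, 10 and 20 months. Added to Nid2 within libraries it gave 74.6 ± 0.502, 51.3 ± 1.69 and 34.7 ± 1.14 FPKM (SD, n = 3 each), again lower at each later age. RefSeq also lists 11 pseudogenes named after Nid2 and 1 named after Lamb2.

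The RefSeq window of Nid1 (chr17:93069036-93069335, plus strand, GRCr8) is shown as that of the nidogen in the promoter table. RefSeq thus places Nid1 on the opposite strand to the authors' row, whose genome build is not given, and the reason was not tested. Capitals mark GC boxes and a CCAAT box on either strand.

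Nid1: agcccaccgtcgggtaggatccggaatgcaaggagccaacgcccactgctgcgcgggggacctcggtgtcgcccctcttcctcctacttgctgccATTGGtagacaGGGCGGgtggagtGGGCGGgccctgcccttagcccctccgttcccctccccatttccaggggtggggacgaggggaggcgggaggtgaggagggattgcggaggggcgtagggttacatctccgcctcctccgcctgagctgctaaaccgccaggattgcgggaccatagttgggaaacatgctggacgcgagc

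It is 66.3% G or C with 21 CpG dinucleotides, above 86.2% of all windows in G and C. The 2 GC boxes and the CCAAT box lie upstream of the start and do not overlap. The windows of Lamb1, Lamc1 and Hspg2 were 63.7%, 71.7% and 70.0% G or C and held 2, 5 and 6 GC boxes, so that among the 8 members with a window Col15a1 alone had no GC box.

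Perlecan was read from a row with an older name. RefSeq gives AABR07073181.1 as an earlier name of Hspg2, and 2 rows of the table are named AABR07073181. The longer of them (chr5:155812105-155885829, plus strand) lies between Cdc42 and Ldlrad2, as Hspg2 does in RefSeq, and the shorter was at 0 to 0.456 FPKM. The longer row had 16.6, 16.3 and 16.4 FPKM at 2 months, 14.9, 14.5 and 15.4 FPKM at 10 months, and 9.45, 9.5 and 11.8 FPKM at 20 months. No ages overlapped. The change at 10 against 2 months did not pass (−0.13 ± 0.08, adjusted p = 0.234), but did without 20-month replicate 3 (adjusted p = 0.0279) and with only these ages fitted (adjusted p = 0.0214). It fell at 20 against 2 months (−0.64 ± 0.08, adjusted p = 7.07e-05) and at 20 against 10 (−0.51 ± 0.08, adjusted p = 3.62e-04). Median-of-ratios scaling gave −0.42 (adjusted p = 0.00138) and −0.26 (adjusted p = 0.0216).

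Ratios within a library do not depend on how libraries are scaled against each other, and 3 were tested. Lamb1 stood at 10.2 ± 0.366%, 8.89 ± 0.0917% and 6.82 ± 0.316% of Lamb2 at 2, 10 and 20 months (SD, n = 3 each). No ages overlapped, and beta 1 was lower relative to beta 2 at each later age. Nid1 stood at 18.8 ± 0.433% of Nid2 at 2 months, 21.3 ± 1.15% at 10 and 15.9 ± 1.84% at 20, highest at 10 months and lowest at 20. Col15a1 stood at 519 ± 55.8%, 124 ± 16.6% and 74.6 ± 33.1% of Col18a1, with 104% in the lowest 10-month and the highest 20-month library. Each ratio differed among the ages at p = 0.00357, adjusted or not over the 3 (exact permutation test of the F statistic over 1680 assignments of the 9 libraries, in either direction), which is the smallest p this design can give. The test does not say which ages differ, and 20 months cannot be told apart from its libraries.

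**Figure D4:**
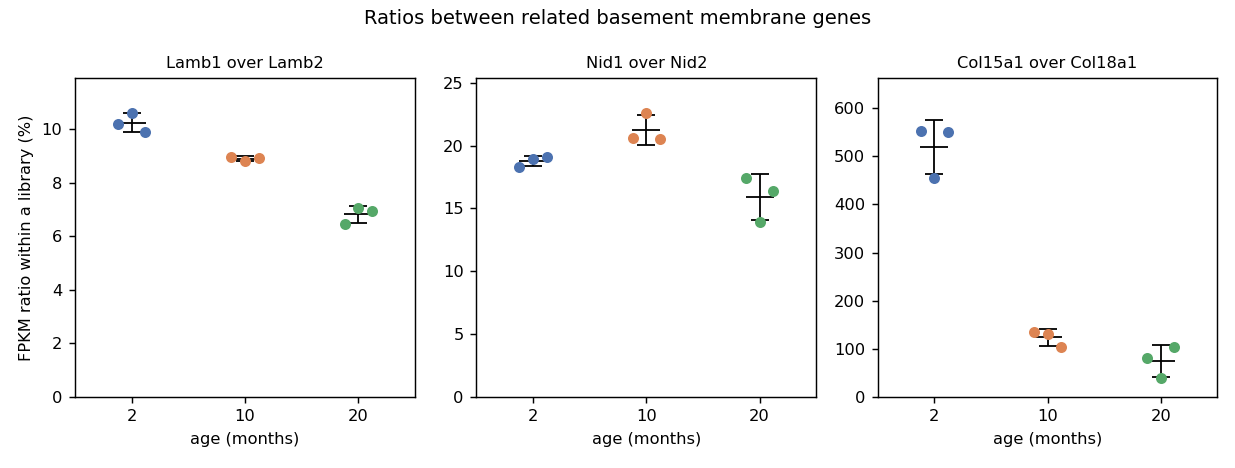
FPKM of Lamb1 as a percentage of Lamb2, of Nid1 as a percentage of Nid2 and of Col15a1 as a percentage of Col18a1 (vertical axes, from 0) by age in months, with each point 1 library and bars for the mean and SD of 3. Lamb1 over Lamb2 is lower at each later age (10.2, 8.89 and 6.82% on average), Nid1 over Nid2 peaks at 10 months, and Col15a1 over Col18a1 drops after 2 months.

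The genes nearest in pattern were sought for each member that the F test called, by the root mean square difference of log2(FPKM + 1), centred per gene, over the 9 libraries. After LOC108348074 (0.293), Col15a1 was nearest to Armh4 (0.392) and to Cyp11a1 (0.393), the enzyme that starts steroid synthesis from cholesterol. Armh4 averaged 14.2, 3.97 and 3.19 FPKM at 2, 10 and 20 months and Cyp11a1 3.01, 0.318 and 0.251 FPKM, so both also dropped after 2 months. The distance is not scaled to the size of a change, so those of Col15a1 cannot be set against those of members that changed less. Lamb1 was nearest to Mmp14 (0.0352), a membrane-bound matrix metalloproteinase, then Cdv3 and Papss1. Lamc1 was nearest to Fbxo34 (0.0316) and to the type V collagen chain gene Col5a1 (0.0327), and Lamb2 to Ifitm2 (0.0372). Nid2 was nearest to Lrp5 (0.0385), a co-receptor for Wnt proteins. Nid1 was nearest to LOC100294508 (0.0571), Tlcd4 (0.0578) and Rreb1 (0.0623). The nidogens differed from each other by 0.155, and 261 genes were nearer to Nid2 than Nid1 was. Such distances rest on 9 libraries in 3 ages, so that many genes share a pattern of 3 levels.

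The other proteins of basement membranes, a list of 18 with 7 tested, moved in both directions. At 10 against 2 months 2 rose and 3 fell, at 20 against 2 months 2 rose and 4 fell, and at 20 against 10 months 0 rose and 5 fell. After median-of-ratios scaling the comparisons with 20 months gave 2 and 4, and 0 and 4. Of all tested genes, 19.0% rose and 11.4% fell at 10 against 2 months. The shares were 18.6% and 49.6% at 20 against 2, and 11.4% and 53.3% at 20 against 10. After that scaling they were 31.1% and 31.2%, and 26.8% and 25.7%. Sparc, a collagen-binding protein of basement membranes and other matrix, was the highest of the list by level. It averaged 1006 ± 9.05, 667.9 ± 22.8 and 417.7 ± 17.2 FPKM at 2, 10 and 20 months (−0.59, −1.27 and −0.68 at 10 against 2, 20 against 2 and 20 against 10 months, adjusted p = 2.42e-05, 3.84e-08 and 2.01e-06). Smoc1, a related calcium-binding protein, averaged 432.4 ± 6.41, 325.2 ± 1.95 and 276.6 ± 9.07 FPKM at 2, 10 and 20 months, and fell at 10 against 2 (−0.41, adjusted p = 3.89e-05) and at 20 against 2 (−0.64, adjusted p = 3.53e-07). Npnt, nephronectin, a ligand of integrin alpha 8 beta 1, averaged 84.7 ± 0.517, 68.1 ± 2.95 and 41.0 ± 3.36 FPKM (−0.31, −1.03 and −0.72 in the 3 comparisons, adjusted p = 0.00360, 7.79e-07 and 1.07e-05). Those that rose were Agrn and Ntn4, named after their values were seen. Agrn, the heparan sulfate proteoglycan agrin, averaged 1.87 ± 0.118, 4.28 ± 0.0750 and 2.59 ± 0.485 FPKM (0.88 at 10 against 2 months, adjusted p = 3.06e-04). Its call at 20 against 2 months (0.31, adjusted p = 0.0193) was lost without 2-month replicate 2 or 20-month replicate 1 or 3 (adjusted p = 0.0620, 0.0617 and 0.0629). Ntn4, netrin 4, which binds laminin, averaged 3.50 ± 0.475, 5.51 ± 0.385 and 4.76 ± 1.02 FPKM (0.54 at 10 against 2 months, adjusted p = 0.0155). That call was lost without 2-month replicate 3 or 10-month replicate 2 (adjusted p = 0.0566 and 0.0561), and 7 of the 9 single omissions ended the call at 20 against 2 months (0.35, adjusted p = 0.0436).

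Of the receptors, a list of 16 with 11 tested, 2 rose and 4 fell at 10 against 2 months, 1 rose and 7 fell at 20 against 2, and 0 rose and 9 fell at 20 against 10. After median-of-ratios scaling 2 rose and 6 fell, 4 rose and 6 fell, and 1 rose and 7 fell in the same order. Over all tested genes, 19.0% rose and 11.4% fell, 18.6% and 49.6%, and 11.4% and 53.3%, as deposited. With that scaling the shares were 15.1% and 14.5%, 31.1% and 31.2%, and 26.8% and 25.7%. Itgb1, the integrin beta 1 chain shared by most laminin and collagen receptors, averaged 311.4 ± 2.39, 253.8 ± 4.96 and 213.4 ± 8.94 FPKM at 2, 10 and 20 months. It fell at 10 against 2 months (−0.29, adjusted p = 3.81e-04) and at 20 against 2 (−0.54, adjusted p = 1.58e-06). Sdc3, a cell-surface heparan sulfate proteoglycan, averaged 187.8 ± 1.64, 116.4 ± 2.19 and 66.4 ± 3.21 FPKM, with changes of −0.69, −1.49 and −0.80 in the 3 comparisons (adjusted p = 1.30e-05, 1.80e-08 and 9.41e-07). Bcam, which binds the laminin alpha 5 chain, averaged 223.6 ± 1.25, 301.7 ± 4.66 and 232.5 ± 12.4 FPKM. It rose at 10 against 2 months (0.43, adjusted p = 1.01e-04) and fell at 20 against 10 (−0.38, adjusted p = 4.34e-05). Named after their values were seen, the laminin-binding alpha chains went apart. Itga6 averaged 40.2 ± 1.45, 31.3 ± 1.07 and 15.0 ± 2.10 FPKM and fell in all 3 comparisons (−0.35, −1.37 and −1.02, adjusted p = 0.0118, 1.12e-06 and 1.16e-05). Itga3 averaged 2.66 ± 0.104, 4.86 ± 0.213 and 3.36 ± 0.385 FPKM, rose at 10 against 2 months (0.68, adjusted p = 2.71e-04) and at 20 against 2 (0.25, adjusted p = 0.0143), and fell at 20 against 10 (−0.43, adjusted p = 8.73e-04, but −0.18 and adjusted p = 0.0620 after quantile normalization).

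Among enzymes and chaperones that process collagens, collagen IV included, 11 of a list of 14 were tested. In these libraries Col4a1 and Col4a2 averaged at most 0.159 FPKM at any age, and the type VI chain gene Col6a1 379.4 to 539.3 FPKM. Which collagens the listed genes served was not tested. At 10 against 2 months 0 rose and 7 fell, and both at 20 against 2 and at 20 against 10 months 1 rose and 9 fell (2 rose and 9 fell, and 1 rose and 3 fell, after median-of-ratios scaling). The shares of all tested genes that rose and fell were 19.0% and 11.4%, 18.6% and 49.6%, and 11.4% and 53.3% in that order. After that scaling they were 31.1% and 31.2% at 20 against 2 months and 26.8% and 25.7% at 20 against 10. Serpinh1, the collagen chaperone HSP47, averaged 167.6 ± 2.29, 123.1 ± 3.33 and 95.8 ± 6.82 FPKM and fell at 10 against 2 months (−0.44, adjusted p = 2.71e-04) and at 20 against 2 (−0.80, adjusted p = 1.20e-06). The lysyl hydroxylase genes Plod1 and Plod2 also fell at 10 against 2 months (−0.37, adjusted p = 7.37e-05, and −0.25, adjusted p = 0.00626). Colgalt2, a galactosyltransferase acting on hydroxylysine and named after its values were seen, averaged 26.3 ± 0.498, 12.3 ± 0.434 and 6.64 ± 0.571 FPKM (−1.04, adjusted p = 1.37e-05, at 10 against 2 months). P4ha2, a prolyl hydroxylase subunit, was the gene that rose. It averaged 80.4 ± 2.79, 82.1 ± 0.931 and 112.1 ± 11.7 FPKM (0.47, adjusted p = 1.75e-04, at 20 against 2 months).

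Genes for the synthesis of heparan sulfate, the chains that perlecan and agrin carry, were all 14 tested of a list of 15. At 10 against 2 months 3 rose and 2 fell, at 20 against 2 months 0 rose and 10 fell, and at 20 against 10 months 0 rose and 11 fell (1 rose and 8 fell, and 2 rose and 8 fell, after median-of-ratios scaling). Among all tested genes, 19.0% rose and 11.4% fell, 18.6% and 49.6%, and 11.4% and 53.3% in that order. After that scaling the shares were 31.1% and 31.2% at 20 against 2 months and 26.8% and 25.7% at 20 against 10. Xylt1, which starts the chains on the core protein, averaged 87.7 ± 1.22, 82.8 ± 4.14 and 48.9 ± 1.37 FPKM and fell at 20 against 2 months (−0.83, adjusted p = 4.30e-07). B3gat3, which completes the linker to the core protein, averaged 45.6 ± 1.48, 55.1 ± 2.22 and 33.8 ± 3.21 FPKM and rose at 10 against 2 months (0.27, adjusted p = 0.0147). This call was lost without replicate 1 of 2 or of 10 months (adjusted p = 0.0546 and 0.0574). The others that rose then were Glce (0.22, adjusted p = 0.00640) and Hs6st1 (0.21, adjusted p = 0.0176), and those that fell Hs2st1 (−0.15, adjusted p = 0.0435) and Ndst1 (−0.31, adjusted p = 0.0481). Calls of the last 3 were lost without some or all single libraries of those ages (lowest and highest adjusted p on loss 0.0510 and 0.153).

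Enzymes that cut basement membranes and their inhibitors, a list of 20 with 11 tested, gave 1 higher and 6 lower at 10 against 2 months, 1 higher and 9 lower at 20 against 2, and 1 higher and 10 lower at 20 against 10 (1 and 8, and 1 and 5, after median-of-ratios scaling). Beside these stand shares of all tested genes of 19.0% higher and 11.4% lower, 18.6% and 49.6%, and 11.4% and 53.3%. With that scaling they were 31.1% and 31.2% at 20 against 2 months and 26.8% and 25.7% at 20 against 10. Ctsl, cathepsin L, a lysosomal protease that can be secreted, averaged 606.1 ± 19.9, 514.3 ± 7.73 and 690.6 ± 41.8 FPKM. It fell at 10 against 2 months (−0.24, adjusted p = 0.00459). Of the tested genes it was the one that rose at 20 against 2 (0.19, adjusted p = 0.00500, but −0.09 after quantile normalization) and at 20 against 10 (0.42, adjusted p = 5.13e-05). Too low to be tested, Mmp3 stood at 0.229, 3.78 and 10.4 FPKM at 20 months, against at most 0.266 before, and Adamts1 averaged 0.0719, 0.137 and 0.674 FPKM. The inhibitors Timp1, Timp2 and Timp3 fell at 20 against 2 months (−0.53, −0.47 and −0.71). These 5 genes were named after their values were seen. Bmp1, which trims procollagens, rose at 10 against 2 months (0.20, adjusted p = 0.0189), a call lost without 2-month replicate 2 or 3 or 10-month replicate 1 or 2 (adjusted p = 0.0604 to 0.0747). Mmp15, a membrane-type metalloproteinase named after its values were seen, averaged 16 ± 0.886, 8.81 ± 0.160 and 2.20 ± 0.255 FPKM (−0.79, −2.41 and −1.62, adjusted p = 7.16e-05, 2.69e-08 and 5.52e-07). For comparison, 0 of 5 tested fibrillar and type VI collagens rose and 3 fell at 10 against 2 months, 0 and 4 at 20 against 2, and 1 and 1 at 20 against 10, the last becoming 3 and 0 after median-of-ratios scaling. Of 4 tested cartilage collagens 0 rose and 4 fell, 0 rose and 3 fell, and 0 rose and 1 fell in the same order of comparisons, the last becoming 2 and 1 after that scaling.

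Further marker lists were read beside these changes. The 9 pericyte and smooth muscle markers summed to 42.7 to 42.9 FPKM at 2 months and 41.9 to 43.0 at 10. At 20 months they summed to 34.8 to 40.7 FPKM. Of the 4 tested, Pdgfrb and Des rose at 10 against 2 months (0.86 and 0.72), Cspg4 fell (−0.81) and Myh11 was not called (−0.16). Their sum hence joins opposite changes. The 8 macrophage markers summed to 11.2 to 11.9, 15.9 to 16.7 and 12.4 to 15.7 FPKM. Of these, 6 stayed below 1 FPKM in every library, and nearly all of the sum was Csf1r and Cd68. Csf1r rose at 10 and at 20 against 2 months (0.69 and 0.61). Cd68 was not called at 10 against 2 months (−0.03) and fell at 20 against 2 (−0.75). The 5 adipocyte markers summed to at most 1.3 FPKM in any library. Skeletal muscle markers, 5 in the table, summed to 23.1 to 25.0 FPKM at 2 months and 15.5 to 17.4 at 10 months, besides the values at 20 months given above. The part of these cells in the changes of the laminins and nidogens was not tested. Without 20-month replicate 3, 6 of the 7 genes were called lower at 20 against 2 months and 5 at 20 against 10 months, when 48.1% and 52.0% of all tested genes were.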

How the data were processed

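Nucleus pulposus input libraries, 3 each at 2, 10 and 20 months, were used. The authors deposited, per the file headers, gene FPKM and isoform FPKM, and read coverage (signal) per transcript not scaled for depth. StringTie 1.3.4d, HISAT2 2.0.4, cutadapt 1.9, edgeR and DESeq2 are listed without roles in the submitters' processing notes. No source used here gives the build, annotation or strandedness, so antisense partners cannot be told apart. FPKM are not counts, and no count test was run.

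The 11708 of 18923 genes that reached an FPKM of 1 in 3 or more of 9 libraries were tested with limma 3.58.1 (R 4.3.3, empirical Bayes with trend) on log2(FPKM + 1) in 1 fit, with Benjamini-Hochberg adjustment over all tested genes and calls at adjusted p under 0.05. All adjusted p-values of genes come from that fit. Isoform use was tested on log2 ratios of an isoform to the gene's other isoforms (0.5 added, summed FPKM of at least 5, mean share 10 to 90%, 2765 isoforms of 1323 genes). Gigabases come from the ratio of FPKM to coverage. Read lengths were inferred, as the most frequent number of covered bases (coverage times length) among weakly covered transcripts. Fragments were estimated as bases over 2 such read lengths, and precision is limited by counting where they are few. The fits were tested on simulated data.

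The members and lists were chosen with earlier results of these data known. Named are all members, the 3 genes nearest in pattern to those the F test called, and up to 3 called members of a list by mean FPKM, others being marked as named later. Some genes that this rule would name are given only in their lists' counts and sums. Some listed genes are not reported here and were left out of their lists' counts and sums. Promoters come from RefSeq (GRCr8) for 8 of 10 members. Nid2 and Lamb2 have no entry there. Deviations of same-numbered replicates correlated at −0.0400 to 0.0491, so the numbers were not taken to pair libraries. No 2 libraries were identical. Alternatives were pseudocounts 0.1 and 5, no filter, a mean FPKM of at least 5, median-of-ratios, fixed-sum and quantile scaling, a replicate block, only the ages compared, and each library left out. Summing a gene with its listed copy was added after the data were seen.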

Additional observations from a re-analysis of the deposited data

How the results depend on the processing

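Scaling mattered most at 20 months. At 20 against 10 months, median-of-ratios scaling and quantile normalization each left 2 members lower in place of 4 and made 2 higher in place of 0, and leaving out single libraries gave 0 to 1 higher. Median-of-ratios scaling also made 1 member higher at 20 against 2 months, where 0 were as deposited. Changes that turned direction were those of Col15a1 at 20 against 10 months (0.01 with median-of-ratios, 0.05 with quantile), Col18a1 at 20 against 2 months (0.05, 0.04, and −0.31 to 0.10 over single omissions), Lamb2 at 20 against 2 months (0.18 and 0.02), Lamc1 at 20 against 10 months (0.07, median-of-ratios) and Ctsl at 20 against 2 months (−0.09, quantile). Single omissions also turned the row LOC108348074 at 20 against 10 months (−0.09 to 0.35) and LOC102554748 at 10 against 2 months (−0.09 to 0.05). The cause was not tested. Lamb2 at 10 against 2 months had an adjusted p of 0.0563 with no filter. Member isoforms called were 0 to 2 over single omissions. The 3 ratios kept p at or under 0.0143 in all omissions. The count at 10 against 2 months ran from 4 (no filter, or any 2- or 10-month library left out) to 7 (only those ages). With the replicate block, 5, 5 and 4 members fell and 0 rose in the 3 comparisons, 7 rather than 6 passed the F test, and each ratio had an exact permutation p = 0.0278. The block changed no call of a member in a pair of ages. It ended the calls of Col4a4 and Ntn4 at 20 against 2 months and Hs2st1 at 10 against 2 months (adjusted p = 0.0524, 0.0523 and 0.0785). The planned ratio of Col4a2 to Col4a1 and a count test on recovered reads were not run, because of values listed at 0 and because FPKM gave no whole reads. Depth limits Col4a1, Col4a2 and, at 10 and 20 months, Col15a1 and Col18a1.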
